A study of Mus musculus with 12 samples.

Results

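Dendritic cells are the marrow-derived cells that sense microbes and present antigen, and 8 of the genes that mark their branches were read across mouse bone marrow with and without irradiation and parathyroid hormone (PTH). The 8 genes were Siglech, Ccr9, Tcf4, Cd209a, Xcr1, Clec9a, Flt3 and Zbtb46. They were found by symbol among 19938 genes of the arrays, each had 1 array row, and all 8 entered the tests with no filter on low values.

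Whole marrow was flushed from the long bones of B6 mice at 16 days of age, and each of 4 groups had 3 arrays. The nonirradiated vehicle group received vehicle and the nonirradiated PTH group PTH, in both cases from day 11 to day 15. The irradiated vehicle and irradiated PTH groups received the same treatments after sub-lethal irradiation at 10 days of age in 2 fractions of 310 cGy. The vehicle and the dose of PTH are not given in the sources used here. Nothing in the labels ties the 3 arrays of a group to different animals or pools, and the p-values therefore rest on array-to-array spread that may be technical. By the sex-marking genes Xist and Kdm5d, the arrays of each irradiated group were of both sexes, so not all 3 came from the same sample. For the nonirradiated groups this stays unknown. In such bulk RNA, fewer cells of a type and less RNA per cell cannot be told apart.

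Dendritic cells arise from marrow progenitors that carry Flt3, the receptor of a growth factor on which their development depends. One branch, the plasmacytoid dendritic cells, makes type I interferon on sensing viral nucleic acid, and its identity is set by Tcf4, a transcription factor of the E protein family that binds E-boxes. Conventional dendritic cells present antigen to T cells and express the transcription factor Zbtb46. Their cross-presenting branch carries the receptors Xcr1 and Clec9a, and Cd209a marks another branch and some monocyte-derived cells. Several of these genes are not confined to dendritic cells: Tcf4 is also used in B cells and stroma, Ccr9 in T cell precursors and Flt3 in early progenitors.

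Of the 8 genes, 4 passed the test in at least 1 comparison, and the 250 bases before their start sites are shown to set the 3 that fell beside the 1 that rose. They are RefSeq promoters of build GRCm38.p6, printed 5′ to 3′ on the gene's strand, with E-boxes (CANNTG) in capitals.
Siglech (chr7:55767934-55768183, + strand): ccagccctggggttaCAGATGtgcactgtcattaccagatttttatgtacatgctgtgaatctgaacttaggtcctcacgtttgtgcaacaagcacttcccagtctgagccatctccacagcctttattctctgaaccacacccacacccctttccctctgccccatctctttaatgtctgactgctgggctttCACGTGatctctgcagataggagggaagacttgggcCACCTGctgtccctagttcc
Ccr9 (chr9:123766961-123767210, + strand): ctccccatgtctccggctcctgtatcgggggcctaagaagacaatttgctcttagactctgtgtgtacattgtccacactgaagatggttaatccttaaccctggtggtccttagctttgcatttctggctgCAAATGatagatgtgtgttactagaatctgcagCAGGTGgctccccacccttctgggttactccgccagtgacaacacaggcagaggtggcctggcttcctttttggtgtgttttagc
Cd209a (chr8:3748985-3749234, - strand): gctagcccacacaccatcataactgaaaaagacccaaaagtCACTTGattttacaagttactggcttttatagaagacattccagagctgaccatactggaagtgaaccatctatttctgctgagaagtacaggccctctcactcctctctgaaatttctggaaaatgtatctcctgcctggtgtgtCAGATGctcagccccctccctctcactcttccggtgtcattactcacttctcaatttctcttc
Xcr1 (chr9:123862030-123862279, - strand): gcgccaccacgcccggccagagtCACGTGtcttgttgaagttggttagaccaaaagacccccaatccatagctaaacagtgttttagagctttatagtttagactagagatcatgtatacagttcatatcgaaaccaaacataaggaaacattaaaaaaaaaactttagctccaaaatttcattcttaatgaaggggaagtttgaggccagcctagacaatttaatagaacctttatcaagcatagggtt
Within 300 bases, from 250 before to 50 after the start, an E-box stood 3 times at Siglech, 2 times at Ccr9, 2 times at Cd209a and 1 time at Xcr1. It also stood 1 time at Clec9a, 2 times at Flt3 and 6 times at Zbtb46. Of 32851 promoters of this length, 72.31% held at least 1. CAGCTG, one form of the E-box, was in none of these 7 promoters and in 16.3% of all. GAGGAA, the core of Ets family sites with flanking bases, was searched on both strands. It was at Siglech alone among the 7, against 28.28% of all promoters. The core without these flanking bases was not searched. TGANTCA, the AP-1 motif, was at Zbtb46 alone, against 7.81% of all.

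The plasmacytoid marker Siglech, which encodes a surface lectin of the Siglec family, fell with irradiation in both treatments. Its log2 expression was 8.16, 8.37 and 7.88 in the nonirradiated vehicle arrays and 7.01, 6.55 and 6.24 in the irradiated vehicle arrays. It was 8.30, 8.12 and 8.05 with PTH alone and 6.36, 7.07 and 6.31 with irradiation and PTH. Every irradiated array lay below every nonirradiated one. The fall in vehicle mice was from 8.13 ± 0.244 to 6.60 ± 0.384 (SD, n = 3), a log2 change of -1.53 (SE 0.232, adjusted p = 0.00455 by limma), or 2.89-fold. In PTH mice Siglech fell by 1.58 (SE 0.232, adjusted p = 0.00343 by limma), or 2.99-fold.

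Ccr9 encodes the receptor that draws plasmacytoid dendritic cells and lymphocytes towards its ligand Ccl25 in gut and thymus. It read 7.26, 6.63 and 6.28 in nonirradiated vehicle arrays and 6.03, 5.17 and 5.58 in irradiated vehicle arrays. With PTH it read 7.35, 6.50 and 6.89 without irradiation and 5.48, 5.74 and 4.88 after it. The groups did not overlap in either treatment. The fall passed in PTH mice (-1.55, SE 0.313, adjusted p = 0.0222 by limma), not in vehicle mice (-1.14, SE 0.313, adjusted p = 0.0971), and averaged over both treatments it was -1.34 (SE 0.221, adjusted p = 0.00299). In vehicle mice the change passed with array weights (adjusted p = 0.0101), with arrays centred on housekeeping genes (0.0304), with the replicate number as a block (0.0327) and without the pair of arrays with the narrowest spread of values (0.0435). The fall in PTH mice lost its call without nonirradiated PTH replicate 1 (adjusted p = 0.114) or 3 (0.0789), without irradiated PTH replicate 1 (0.0628) or 3 (0.0675), with a term for sex (0.218), with only the groups compared in the fit (0.0571) and without that pair of arrays (0.0559). Of 10 T and NK cell genes, 1 fell in vehicle mice and 2 in PTH mice (1.01% and 1.74% of all genes), and their mean level was 6.31 to 6.87 in nonirradiated and 6.02 to 6.27 in irradiated arrays. This moved with Ccr9, and its part in the fall was not tested.

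Cd209a, a C-type lectin of the DC-SIGN family, fell with irradiation in both treatments. It read 7.50, 6.98 and 7.32 in nonirradiated vehicle marrow and 6.22, 5.96 and 5.71 in irradiated vehicle marrow. In PTH-treated marrow the values were 7.67, 7.12 and 7.60 without irradiation and 5.74, 6.06 and 5.83 after it. No irradiated array reached the lowest nonirradiated one. Cd209a fell by 1.30 in vehicle mice (SE 0.192, adjusted p = 0.00398 by limma) and by 1.59 in PTH mice (SE 0.192, adjusted p = 0.00102), which are 2.47-fold and 3.01-fold. Siglech and Cd209a kept their calls in both treatments in all 12 fits that left out 1 array and in all 11 other settings tried.

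**Figure D1:**
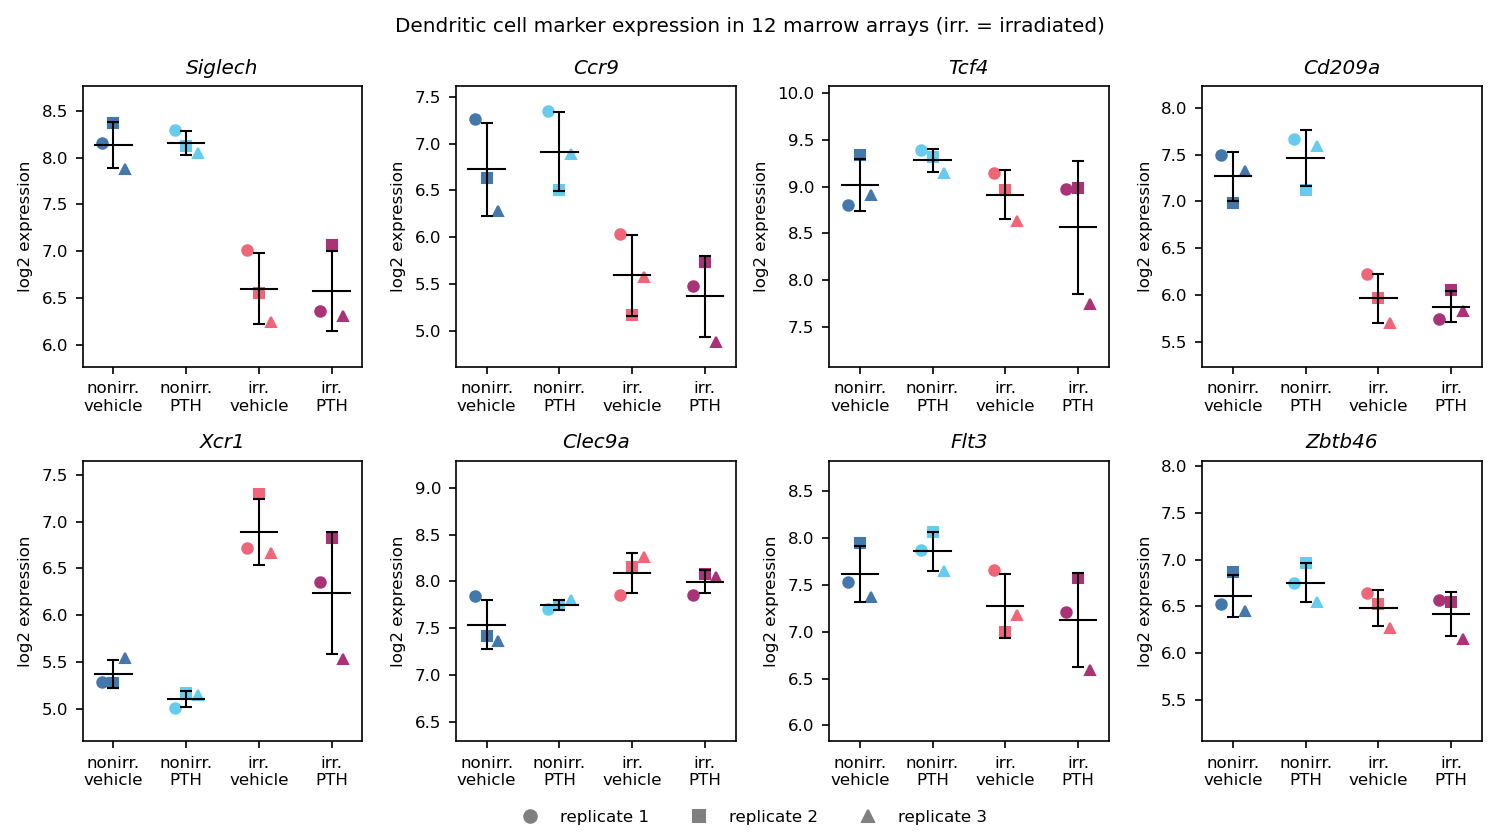
Log2 expression of the 8 markers in each of the 12 arrays, by group; point shapes give the replicate number, horizontal lines the group mean and bars the SD (n = 3), and every panel spans 3 log2 units. Siglech, Ccr9 and Cd209a are lower and Xcr1 mostly higher in irradiated arrays, while Tcf4, Flt3 and Zbtb46 overlap more.

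Xcr1, the receptor of the chemokine Xcl1 and a marker of cross-presenting dendritic cells, rose. Its level was 5.29, 5.28 and 5.54 in nonirradiated vehicle arrays and 6.72, 7.29 and 6.66 in irradiated vehicle arrays. The nonirradiated PTH arrays read 5.01, 5.17 and 5.15 and the irradiated PTH arrays 6.35, 6.83 and 5.53. Within each treatment the groups did not overlap, though irradiated PTH replicate 3 lay just under the highest nonirradiated vehicle array. Xcr1 rose by 1.52 in vehicle mice (SE 0.271, adjusted p = 0.0116 by limma), or 2.87-fold, and by 1.33 on average over both treatments (SE 0.192, adjusted p = 0.00128). In PTH mice the change was 1.13 (SE 0.271, adjusted p = 0.0529), which missed the threshold, and without irradiated PTH replicate 3 it was 1.48 (adjusted p = 0.00296). It passed in 1 of 12 fits without 1 array and in 6 of 11 other settings, the replicate block among them (adjusted p = 0.0345). The fit without dim genes is also among the 6, and its filter spared the markers whatever their level. The call in vehicle mice ended without irradiated vehicle replicate 2 (adjusted p = 0.0659).

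Clec9a, a C-type lectin by which the same cells sense dead cells, had smaller changes. It lay between 7.37 and 7.84 in nonirradiated vehicle arrays and between 7.85 and 8.26 in irradiated vehicle arrays, and with PTH between 7.70 and 7.80 and between 7.85 and 8.08. All 6 irradiated arrays were above all 6 nonirradiated ones. The changes were 0.55 in vehicle mice (SE 0.152, adjusted p = 0.0985 by limma), 0.25 in PTH mice (SE 0.152, adjusted p = 0.526) and 0.40 averaged (SE 0.108, adjusted p = 0.05003), the last just over the threshold. The averaged change passed with array weights (adjusted p = 0.00507) and when replicate 1 of either vehicle group was dropped (0.0137 for the nonirradiated, 0.0326 for the irradiated one). With the mean of the rows of a gene its adjusted p by limma was 0.0493. Since Clec9a has 1 row, its own values were the same in that fit and only those of other genes differed. In vehicle mice Clec9a passed with array weights (adjusted p = 0.0106) and without nonirradiated vehicle replicate 1 (0.0319).

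The regulators Tcf4, Flt3 and Zbtb46 did not pass in any comparison with all arrays and the settings chosen as main. Flt3, whose change averaged over both treatments was -0.54 (adjusted p = 0.117 by limma), passed there with array weights (adjusted p = 0.0213), with arrays centred on housekeeping genes (0.0231) and without irradiated PTH replicate 2 (0.0490). Tcf4 lay between 8.81 and 9.34 in nonirradiated vehicle, 8.63 and 9.15 in irradiated vehicle, 9.15 and 9.39 in nonirradiated PTH and 7.74 and 8.98 in irradiated PTH arrays. Its change was -0.10 in vehicle mice (95% confidence interval -0.73 to 0.52) and -0.72 in PTH mice (-1.35 to -0.09, adjusted p = 0.294 by limma). The latter was -0.31 without irradiated PTH replicate 3, whose 7.74 was the lowest Tcf4 value of all arrays. Flt3 changed by -0.34 in vehicle mice (-0.89 to 0.21) and by -0.74 in PTH mice (-1.29 to -0.18, adjusted p = 0.200), and by -0.47 in PTH mice without that array. Zbtb46 changed by -0.13 (-0.51 to 0.24) and -0.33 (-0.70 to 0.04). The intervals in vehicle mice reach well below 0 for Tcf4 and Flt3, so a fall there was not shown to be absent.

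**Figure D2:**
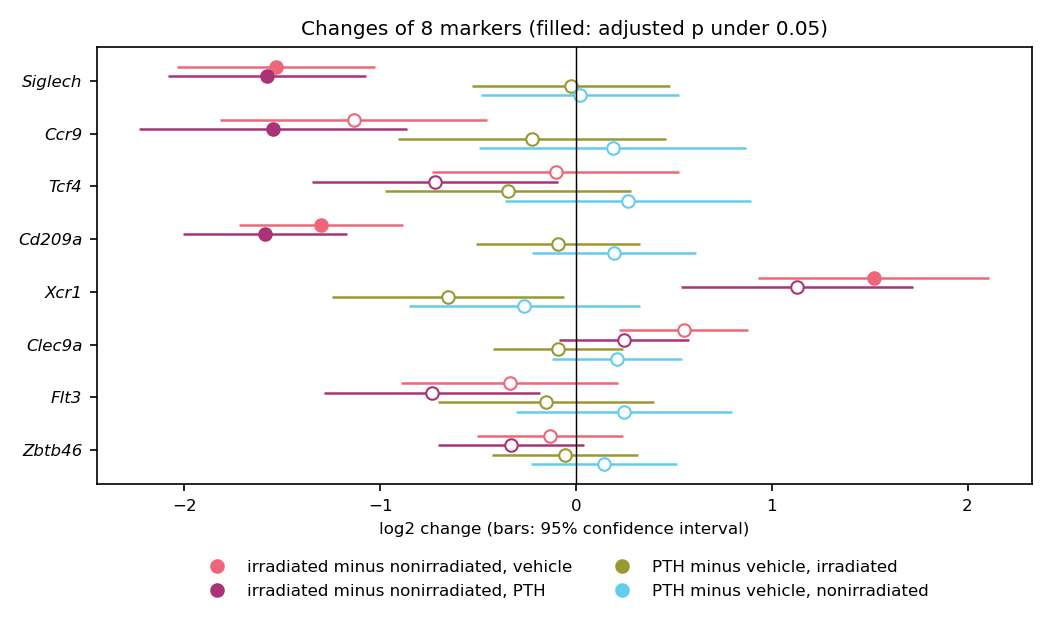
Log2 changes of the 8 markers in 4 comparisons, with 95% confidence intervals from limma; filled points have an adjusted p under 0.05. Siglech and Cd209a are filled on the left in both irradiation comparisons, Ccr9 in PTH mice, and Xcr1 is filled on the right in vehicle mice, while no PTH comparison has a filled point.

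Counted together, 3 of the 8 genes were called in vehicle mice, 2 lower and 1 higher, where 2.22% of all genes were called, 1.01% lower and 1.21% higher. In PTH mice 3 of 8 were called, all lower, against 2.43% of all genes, 1.74% lower and 0.692% higher. Averaged over both treatments 4 of 8 were called, 3 lower and 1 higher, against 6.1% of all genes, 3.59% lower and 2.51% higher. In vehicle mice the groups did not overlap for 5 of 8, 3 lower and 2 higher (18.8% of all genes, 9.83% lower and 8.95% higher). In PTH mice this held for 7 of 8, 5 lower and 2 higher (19.8%, 10.9% lower and 8.93% higher). All 6 irradiated arrays lay to one side of all 6 others for 4 of 8, 3 lower and 1 higher (4.49%, 2.8% lower and 1.69% higher). The median change of the 8 was -0.24 in vehicle and -0.73 in PTH mice, against -0.03 and 0.01 over all genes. The genes were brought together with such results known, so these counts describe them and are no further evidence.

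No PTH change passed the limma test in the 8 genes, nor in any of all genes, 0 of 19938 (0%) in either irradiation state, with 356 and 759 genes at an unadjusted p under 0.05. Of the 8, 0 had an unadjusted p under 0.05 in nonirradiated mice and 1 in irradiated mice. That 1 was Xcr1, which was lower with PTH after irradiation by 0.65 on the log2 scale (95% confidence interval -1.25 to -0.06, adjusted p = 0.844 by limma), and by 0.30 without irradiated PTH replicate 3. Both that difference and the rise of Xcr1 in vehicle mice use the irradiated vehicle group. Groups with and without PTH did not overlap for 1 of 8 in nonirradiated mice, Xcr1, which was lower (6.84% of all genes, 3.62% lower and 3.21% higher). In irradiated mice this held for 0 of 8 (9.73%, 4.25% lower and 5.48% higher). For Siglech the PTH change was 0.02 (-0.48 to 0.53) in nonirradiated and -0.02 (-0.53 to 0.48) in irradiated mice, and for Cd209a 0.20 (-0.22 to 0.61) and -0.09 (-0.51 to 0.33). No difference of the irradiation change between treatments passed the interaction test in the 8 genes, the adjusted p by limma lying between 0.732 for Tcf4 and Clec9a and 0.970 for Siglech. The interaction was -0.05 for Siglech (-0.76 to 0.67), -0.29 for Cd209a (-0.88 to 0.31), -0.41 for Ccr9 (-1.38 to 0.55) and -0.39 for Xcr1 (-1.23 to 0.45). Differences between treatments within these 95% confidence intervals were not excluded with 3 arrays a group. Genes called as an interaction numbered 0 of 19938 (0%), with 1094 at an unadjusted p under 0.05.

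Within the irradiated groups the markers tended to share their highest arrays. In the nonirradiated groups the highest values were more spread, over replicates 1, 2 and 3 as 3, 4 and 1 with vehicle and 4, 3 and 1 with PTH. Such sharing was not counted over all genes. Irradiated vehicle replicate 1 held the highest value of its group for 6 of the 8 genes, namely Siglech, Ccr9, Tcf4, Cd209a, Flt3 and Zbtb46. Irradiated PTH replicate 2 held the highest value for 7 of 8 genes and irradiated PTH replicate 3 the lowest for 6 of 8. That last array and nonirradiated vehicle replicate 3, the lowest of its group for 5 of 8, also had the narrowest spread of values over all rows. Their interquartile ranges were 2.88 and 2.86 against 3.13 to 3.25 in the other arrays. Low marker values were not particular to them. Irradiated vehicle replicate 3 was the lowest of its group for 5 of 8 and nonirradiated PTH replicate 3 for 4 of 8, with interquartile ranges of 3.23 and 3.18. Housekeeping genes averaged 10.96 to 11.38 in the irradiated PTH arrays and 11.16 to 11.41 in the other 9. By Xist and Kdm5d, 0 of 3 nonirradiated vehicle and 3 of 3 nonirradiated PTH arrays had a female pattern. In each irradiated group 1 of 3 arrays did. Sex and PTH therefore cannot be told apart in nonirradiated mice. The irradiation changes within each treatment and the interaction are also partly mixed with sex. A fitted term for sex rests on the irradiated groups alone, since neither nonirradiated group held both patterns. With a term for sex, Siglech and Cd209a, 2 of 8, were called in PTH mice, and 200 of 19938 genes against 485. In vehicle mice 3 of 8 were called, and 304 genes against 442. Without both narrow-range arrays 4 of 8 genes were called in vehicle mice, Ccr9 being the one gained, and 510 of all 19938 genes. In PTH mice 3 of 8 were then called, Siglech, Cd209a and Xcr1, and 435 of all genes.

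Beyond the 8 genes, other genes of the plasmacytoid branch went both ways, and those that passed fell. Of 16 measured, 5 fell and 0 rose averaged over both treatments (3.59% and 2.51% of all genes), with a median of -0.12 against -0.01 over all genes. Without irradiated PTH replicate 3, 5 fell and 2 rose, and without both narrow-range arrays 5 fell and 1 rose. In vehicle mice 3 fell and in PTH mice 4 (1.01% and 1.74% of all genes). The falls were Spib, a transcription factor (-2.75), Ly6d, a surface protein of lymphoid precursors (-1.29), Tlr9, the sensor of unmethylated DNA (-0.89), Mzb1, a chaperone of antibody-secreting cells (-0.84), and Cd300c, a receptor of the CD300 family (-0.79). All of these but Cd300c are also known from B-lineage cells. The other 11 did not pass, and 4 of them had values above 0. These 4 were Irf7, a transcription factor of the interferon response (0.78, adjusted p = 0.0986 by limma, and 1.01 in vehicle mice), Bst2, an interferon-inducible surface protein of these cells (0.49), Lifr, a cytokine receptor (0.29), and Klra17, a lectin-like receptor (0.25). Irf8, a transcription factor of several dendritic branches that is in the cross-presenting list too, had the lowest value of the 11 (-0.47). Of 11 B-lineage genes, 9 fell in vehicle mice and 10 in PTH mice (1.01% and 1.74% of all genes). Their mean level was 9.10 to 9.51 in nonirradiated and 6.82 to 7.58 in irradiated arrays, moving with the plasmacytoid list, and their part in the result was not tested.

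Genes of the cross-presenting branch went both ways. Of 14 measured, 4 rose and 2 fell averaged over both treatments (2.51% and 3.59% of all genes), with a median of 0.22. Tlr3, the sensor of double-stranded RNA, rose by 0.99, Naaa, a lysosomal amidase, by 0.84, Itgae, the CD103 integrin chain, by 0.66, and Rab7b, a vesicle-trafficking GTPase, by 0.64. Gcsam, a signalling gene also of germinal-centre B cells, fell by 0.92 and Cd8a, which T cells also carry, by 0.65. The branch's transcription factor Batf3 changed by 0.32 (adjusted p = 0.193 by limma) and did not pass. In single treatments Tlr3 was 1.04 in vehicle mice (adjusted p = 0.0328) and 0.94 in PTH mice (adjusted p = 0.0509), and Itgae 0.83 (adjusted p = 0.0299) and 0.48 (adjusted p = 0.235). In vehicle mice Tlr3 kept its call in 4 of 12 fits without 1 array and Itgae in 8, whereas the averaged changes of both held in all 12. The averaged call of Naaa ended without nonirradiated PTH replicate 1 or 3, and that of Rab7b in 5 of 12 such fits, where the highest adjusted p were 0.0546 and 0.0724. Of 11 macrophage genes 2 rose in vehicle mice and 1 in PTH mice (1.21% and 0.692% of all genes), and their mean level was 8.19 to 8.62 in nonirradiated and 8.34 to 9.01 in irradiated arrays. Their part in the result was not tested.

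**Figure D3:**
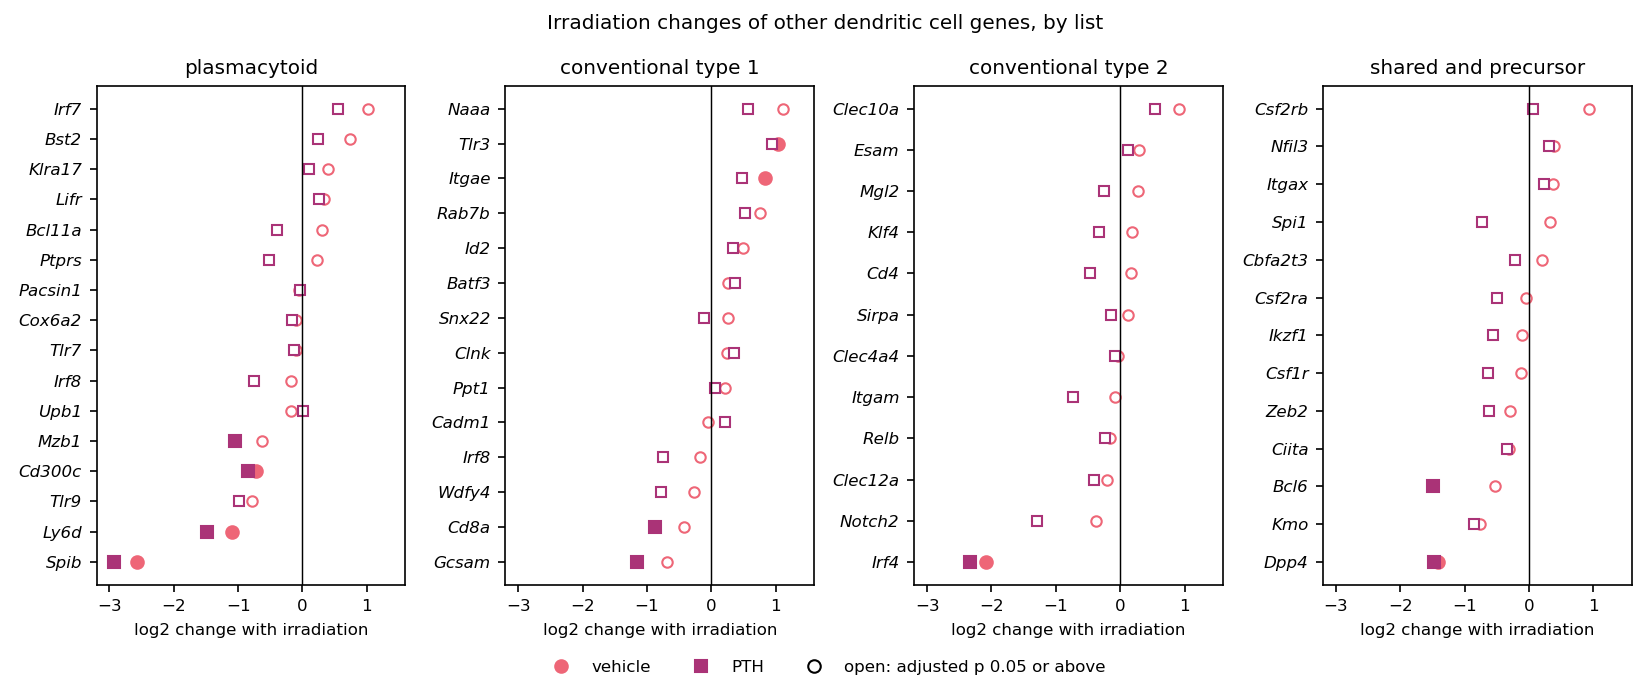
Log2 change with irradiation of other dendritic cell genes in vehicle mice (circles) and PTH mice (squares), in 4 lists; filled symbols have an adjusted p under 0.05 by limma. The largest falls are Spib and Irf4, while filled symbols on the right are Tlr3 and Itgae, both in vehicle mice.

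Of 12 genes of the branch that Cd209a marks, 1 fell and 1 rose on average over treatments (3.59% and 2.51% of all genes). Irf4, a transcription factor of these cells and of B and plasma cells, fell in both treatments, with changes of -2.09 in vehicle and -2.34 in PTH mice (SE 0.220, adjusted p = 0.000566 and 0.000224 by limma). Clec10a, a lectin of macrophages and dendritic cells, had a mean rise of 0.73 (adjusted p = 0.0224 by limma), which missed the threshold with arrays centred on housekeeping genes and in 4 of 12 fits without 1 array. Sirpa, a surface receptor of this branch and of monocytes, changed by 0.12 and -0.14 and did not pass. Among 6 monocyte genes 0 passed in vehicle or PTH mice (2.22% and 2.43% of all genes), with medians of -0.58 and -0.49. On average over treatments 2 of the 6 fell (3.59% of all genes). The mean level of the 6 was 8.07 to 8.81 in nonirradiated and 7.75 to 8.33 in irradiated arrays, ranges that overlapped. In each treatment 5 of the 6 changed downward, as Cd209a did. The other 1, Fcgr1, changed upward, by 0.79 in vehicle and 0.25 in PTH mice. The part of monocyte genes in the fall of Cd209a was not tested.

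Among 13 genes shared by conventional dendritic cells or active in their precursors, 3 fell and 0 rose on average over treatments (3.59% and 2.51% of all genes). Dpp4, a surface peptidase also of lymphocytes, fell by 1.45, Bcl6, a transcriptional repressor, by 1.01 and Kmo, an enzyme of tryptophan breakdown, by 0.81. The call of Kmo ended in 4 of 12 fits without 1 array. Itgax, the CD11c integrin chain, had changes of 0.37 and 0.23 and did not pass. Of 9 progenitor genes 0 passed in vehicle mice (2.22% of all genes) and 2, Kit and Meis1, fell in PTH mice (1.74% of all genes). The mean level of the 9 was 7.21 to 7.59 without and 6.75 to 7.27 with irradiation. This moved with the lower Flt3 values, and its part in them was not tested. Of 10 maturation genes 2 fell on average (3.59% of all genes), the costimulatory receptor Cd40 (-0.81) and the homing receptor Ccr7 (-0.47), and the call of Ccr7 held in only 4 of 12 fits without 1 array. Of 7 class II presentation genes 1 fell in vehicle and in PTH mice (1.01% and 1.74% of all genes). This was H2-Ob, a chain of the peptide-loading modulator of B cells (-2.01 and -2.63). H2-Ab1 (0.78 and -0.33) and Cd74 (-0.18 and -1.61) did not pass. Changes were above 0 for 4 of the 7 in vehicle mice and for 0 in PTH mice.

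The ligands and growth factors of these cells did not pass. Of 8 measured, 0 were called in vehicle or PTH mice (2.22% and 2.43% of all genes). Xcl1, the ligand of Xcr1, had changes of -0.11 and 0.17 in vehicle and PTH mice, Ccl25, the ligand of Ccr9, 0.18 and -0.48, and Flt3l, the ligand of Flt3, 0.22 and -0.09, with standard errors of 0.23, 0.205 and 0.145.

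Ccr9 and Xcr1 lie near each other on chromosome 9 in the RefSeq order of GRCm38.p6, with 2 genes, Fyco1 and Cxcr6, between them. This run of genes was chosen after the values were seen. Fyco1, an adaptor of vesicle transport, changed by -0.09 in vehicle and -0.47 in PTH mice, and Cxcr6, a chemokine receptor of lymphocytes, by -0.17 and -0.16. On the outer sides, Lztfl1 had the same mean, 8.76, in both vehicle groups and changed by 0.16 in PTH mice, and Ccr1 changed by -0.07 and 0.15. The receptors Ccr1l1, Ccr3 and Ccr2 changed by -0.27, -0.43 and -0.53 in vehicle mice and by 0.08, 0.01 and -0.42 in PTH mice. Of these 9 neighbours, only Ccr9 and Xcr1 passed by limma in a comparison, and they moved in opposite directions.

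**Figure D4:**
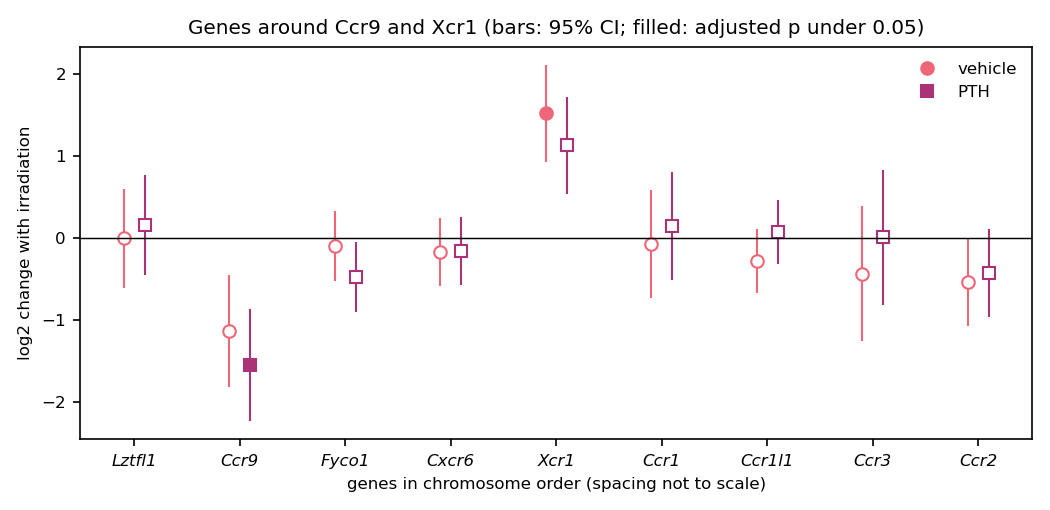
Log2 change with irradiation of 9 neighbouring genes of chromosome 9, in their order, with 95% confidence intervals, in vehicle mice (circles) and PTH mice (squares); filled symbols have an adjusted p under 0.05. Ccr9 lies below and Xcr1 above the other 7, which all lie between -0.53 and 0.16.

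For each marker that passed, the 3 genes with the most similar values over the 12 arrays were found by Pearson correlation, given here as a description since the arrays fall into irradiated and nonirradiated sets. Siglech was most like Ero1b (r = 0.987), Baz2b (r = 0.986) and Smim14 (r = 0.986). Ccr9 was most like Ric8b (r = 0.955), Rnf141 (r = 0.953) and Gpc4 (r = 0.952). Cd209a was most like Med12l (r = 0.977), Sh2d4a (r = 0.971) and Iftap (r = 0.971). Nearest to Xcr1 were Usp44 (r = 0.960), Cacna1c (r = 0.939) and Cyp2f2 (r = 0.938). The genes nearest Xcr1 changed by 1.28, 1.58 and 2.79 in vehicle mice, and those nearest Siglech by -0.90, -0.56 and -0.77. None of the 8 markers was among another's nearest 3.

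**Figure D5:**
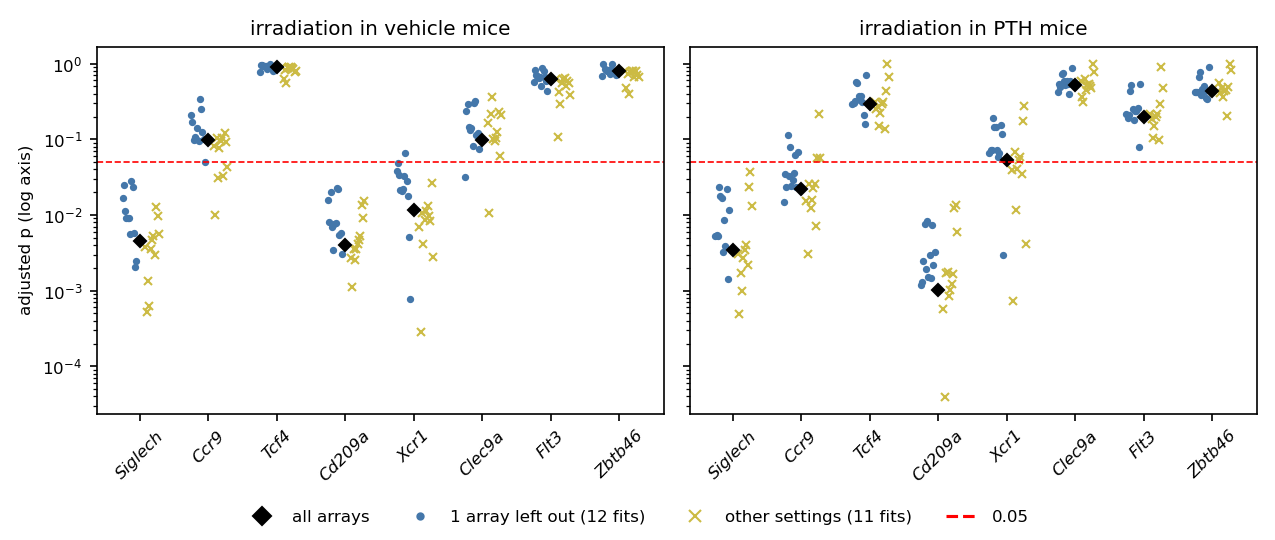
Adjusted p of each marker with all arrays (diamonds), with 1 array left out (dots) and under other settings (crosses), on a log axis, with a dashed line at 0.05. Every symbol of Siglech and Cd209a lies under the line in both treatments, while those of Ccr9 and Xcr1 lie on both sides.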

How the data were processed

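Total RNA of 12 marrow samples was amplified with the NuGEN Applause kit and read on 1-colour arrays. The deposited values are log2 expression, and the authors' steps included RMA, affy and limma, per the submitters' processing notes; the log2 scale was read from the values. Depth does not apply to arrays, and 3 a group limits the precision. Of 35556 rows, 21789 had 1 gene symbol, 1621 several and 12146 none listed. For 999 genes with several rows the row with the highest mean was kept, giving 19938 genes. All 4 groups entered 1 fit (limma 3.58.1 in R 4.3.3), with Benjamini-Hochberg adjustment over all genes and a threshold of 0.05, and the script was tested on simulated data. A term for sex, array weights, other scalings, fewer arrays and other filters were tried. The filter that left out dim genes spared the 8 members. Members and lists were chosen with earlier results of these data known. The genes named are the 8 members, of each list at most the 4 called genes with the smallest p on average over treatments, a few ligands and partners, and the 3 genes most like each called member. Tlr9, Irf7, Lifr, Klra17, Naaa, Rab7b, Sirpa, Fcgr1, Itgax, H2-Ab1, Cd74 and the chromosome 9 neighbours fall outside that rule and were chosen after their values were seen. Same-numbered arrays deviated together in all 3 pairs only between the irradiated groups, where the block changed no call. RefSeq promoters (GRCm38.p6) were matched by symbol for 7 of 8 members. RNA quality was not analysed here.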

Additional observations from a re-analysis of the deposited data

How the results depend on the processing

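The members called numbered 2 to 4 in vehicle mice and 2 to 3 in PTH mice when 1 array was left out, and 4 to 5 on average over treatments. With array weights 5 were called in vehicle mice and 6 on average. Siglech and Cd209a kept their calls under every setting run, within each treatment. Of 18 same-numbered pairs of arrays, 10 had a correlation of deviations from the group means over 0.1 (median 0.178), against 12 of 36 other pairs (median -0.08). Between the irradiated groups all 3 same-numbered pairs were over 0.1 (0.447, 0.144 and 0.570), and those arrays also match in sex pattern. Between irradiated and nonirradiated groups of a treatment they were not (-0.65, 0.212 and -0.25 with vehicle, -0.04, 0.276 and 0.449 with PTH), so the pairing was not taken as given there. With the replicate block 4 members and 500 genes were called in vehicle mice (Ccr9 gained), 4 and 672 in PTH mice (Xcr1 gained) and 4 and 1407 on average, and 0 in the PTH comparisons and the interaction, as without it. Over all genes, 442 calls in vehicle mice became 1149 with array weights, 211 to 762 with 1 array left out, and 183 higher and 335 lower with arrays centred on housekeeping genes, against 241 and 201. That centring moved the median of all genes from -0.03 to -0.16. The 485 calls in PTH mice became 1148 with array weights, 232 with only the groups compared, 200 with a term for the sex pattern and 225 to 531 with 1 array left out, and the 1216 average calls 2517 with array weights. For PTH in nonirradiated mice, where PTH and sex cannot be told apart, the 0 calls became 4 with only the groups compared. Of these 1 was higher and 3 lower, and 0 were markers. Alternatives for genes outside the 8 markers were chosen after seeing the data. The cause of these shifts was not tested. With 3 arrays a group, small changes could not be detected.

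No called change of a marker turned its sign. For PTH in nonirradiated mice, the sign turned for Siglech -0.037 with array weights, for Siglech -0.10 with quantile normalization repeated, for Siglech -0.041 with arrays centred on housekeeping genes, for Siglech -0.12, Ccr9 -0.22, Tcf4 -0.21, Flt3 -0.10 and Zbtb46 -0.089 with a term for the sex pattern, for Siglech -0.11 and Ccr9 -0.033 with both narrow-range arrays left out. The sex term there was estimated in the irradiated groups alone and carried over, so those values do not separate sex from PTH. For PTH in irradiated mice, the sign turned for Siglech 0.11, Ccr9 0.24, Flt3 0.24 and Zbtb46 0.010 with array weights, for Clec9a 0.045 with quantile normalization repeated, for Siglech 0.11, Cd209a 0.039, Clec9a 0.036 and Zbtb46 0.071 with arrays centred on housekeeping genes, for Siglech 0.11, Ccr9 0.016, Tcf4 0.062, Flt3 0.11 and Zbtb46 0.077 with both narrow-range arrays left out. For the interaction of irradiation and PTH, the sign turned for Siglech 0.14, Flt3 0.15 and Zbtb46 0.0039 with array weights, for Siglech 0.10 with quantile normalization repeated, for Siglech 0.15 with arrays centred on housekeeping genes, for Siglech 0.10 and Zbtb46 0.031 with a term for the sex pattern, for Siglech 0.22, Ccr9 0.050 and Zbtb46 0.017 with both narrow-range arrays left out. For irradiation in PTH mice, the sign turned for Xcl1 -0.10 with array weights, for Flt3l 0.067 with quantile normalization repeated, for Xcl1 -0.023 with a term for the sex pattern, for Xcl1 -0.13 with both narrow-range arrays left out. With 1 array left out, signs turned within these ranges: for irradiation in vehicle mice Tcf4 -0.22 to 0.054 and Irf8 -0.35 to 0.092, and for PTH in nonirradiated mice Siglech -0.11 to 0.14 and Ccr9 -0.033 to 0.46, and for PTH in irradiated mice Siglech -0.27 to 0.18, Cd209a -0.22 to 0.039, Flt3 -0.38 to 0.11, Zbtb46 -0.16 to 0.077, Ccr9 -0.44 to 0.016 and Tcf4 -0.56 to 0.062, and for interaction of irradiation and PTH Siglech -0.29 to 0.16, and for irradiation in PTH mice Xcl1 -0.13 to 0.35.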
